A study of Homo sapiens with 22 samples.

Results

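The KLF and SP zinc finger transcription factors were followed through a decay time course in human cells. The genes were KLF3, KLF4, KLF5, KLF6, KLF10, KLF11, KLF13, KLF16, SP1 and SP3, chosen by symbol, and they are 10 of 59732 genes with a named transcript in the tables. Of their 55 transcripts, each gene was followed by the protein-coding one with the highest mean count over the libraries of 0 to 10 h. BRIC-Seq labels new RNA with bromouridine (BrU), a uridine analogue, and recovers the labelled RNA with an antibody at set times after the label is withdrawn. The cells were HEK293T, a human embryonic kidney line. The first kind carried a short hairpin RNA that served as control (shControl), and the other a hairpin that targets ZNF598 (shZNF598), the ubiquitin ligase known for marking ribosomes that have collided. Both kinds of cells received 150 µM BrU for 24 h before the chase. Each shRNA had 2 libraries at 0, 2, 4, 6 and 10 h of the chase and 1 library at 24 h, which gave 22 libraries in 12 groups. The design asks whether loss of ZNF598 changes the decay of mRNAs. How the hairpins were delivered, and whether the cells were 1 clone, is not given in the sources used here.

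KLF and SP proteins bind GC-rich and CACCC-type promoter elements through C2H2 zinc fingers at or near their C-terminal end. SP1 and SP3 occupy many promoters of genes that most cells use. KLF4, KLF5 and KLF6 are mostly known as activators that respond to growth signals and stress, KLF3 recruits the CtBP corepressors, and KLF10, KLF11, KLF13 and KLF16 recruit the SIN3A corepressor. Several KLF genes, KLF10 among them as a TGF-beta-inducible early gene, are switched on quickly by signals, and mRNAs of that kind are known for short lives.

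Total counts were 52352359 to 96963584 per library over 0 to 10 h. Levels are given as CPM, counts scaled to a common library total with TMM factors, which assume that most transcripts stay level, and a change over the chase is therefore a change relative to the bulk of the mRNAs. The ZNF598 transcript was at 4.05 to 8.55 CPM in the shControl libraries of 0 to 10 h and at 0.419 to 1.07 CPM in the shZNF598 libraries, a log2 difference of -3.05 (SE 0.087, edgeR quasi-likelihood test, adjusted p = 1.17e-18). The HEK293T markers VIM, KRT8, KRT18 and NEFM were detected in every library. PTPRC, ALB, MYOD1 and CDH5, markers of blood, liver, muscle and endothelium, did not exceed 0.0985 CPM in any. Over 0 to 10 h 3 of the 4 HEK293T markers differed in shZNF598 from shControl (NEFM -0.79, KRT8 -0.17 and VIM 0.15, edgeR adjusted p = 5.35e-07, 0.0249 and 0.0128). In that comparison 22.4% of all transcripts tested were called. The spread between replicates exceeded counting noise at each time of 0 to 10 h, with a ratio of chi-square to degrees of freedom of 2.31 to 18.8, the highest in shControl at 0 h. Nothing says that replicates were separate cultures, so p-values measure the spread between these libraries only. Of the 10 members, 9 passed the filter of a mean of 1 CPM over the libraries of 0 to 10 h, and KLF4, with a mean of 17.85 counts per library, did not, so it enters no test and is given by its counts, its level at 0 h and an apparent half-life that rests on few counts.

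All 10 coding sequences hold 3 C2H2 fingers in a stretch of 81 codons, and this shared block is what joins the family. Translated by script from the GENCODE transcripts, the stretches were 58.0% to 88.9% identical between members, with the highest identity between SP1 and SP3 and the next between KLF10 and KLF11 (87.7%). The coding sequence ended 1 to 3 codons after the last finger in KLF3, KLF4, KLF5 and KLF6, 29 to 43 codons after it in KLF10, KLF11, KLF13 and KLF16, and 77 or 78 codons after it in SP1 and SP3. The 21 bases that link the first finger to the next are given for 5 members, since they show both what the family shares and where its branches part. Capitals mark the fourth codon of the linker, which encodes lysine in KLF3, KLF4, KLF5, KLF6, KLF10 and KLF11 and arginine in KLF13, KLF16, SP1 and SP3. In all 8 KLF genes an exon junction falls inside this linker, whereas in SP1 and SP3 it falls inside the next linker. The sequences are from GENCODE release 44 on GRCh38, 5′ to 3′ on the strand of the gene.
KLF5: actggtgaaAAGccatacaag
KLF6: acaggagaaAAGccttacaga
KLF11: acaggggagAAGcctttcaac
SP1: acaggcgagAGGccatttatg
SP3: tctggagaaCGCccttttgtt
The linkers of SP1 (chr12:53409468-53409488, plus strand) and SP3 (chr2:173913143-173913163, minus strand) are continuous in the genome. Those of KLF5 (chr13:73063880-73075724, plus strand), KLF6 (chr10:3780213-3781644, minus strand) and KLF11 (chr2:10048592-10052243, plus strand) are joined across an intron.

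Before the chase, SP1 and SP3 were the most abundant members per transcript length. SP1 (ENST00000327443.9, chromosome 12, 53380176 to 53416446, plus strand, 7680 nt) stood at 6.41 and 7.42 CPM per kb in the shControl libraries and at 7.57 and 8.18 in the shZNF598 libraries. SP3 (ENST00000310015.11, chromosome 2, 173900775 to 173965373, minus strand, 12045 nt in the files) had a mean of 2.28 CPM per kb in shControl and 2.42 in shZNF598 cells. The SP3 identifier matched release 44 only without its version, where the transcript holds 11714 exon bases, so the coordinates, 3′ UTR and motifs of SP3 are those of the release 44 version. SP1, SP3 and the rest did not overlap in either cell type. In shControl cells the next places were taken by KLF13 (1.48 CPM per kb), KLF5 (1.30), KLF11 (1.14), KLF10 (1.06), KLF16 (1.03), KLF3 (0.980) and KLF6 (0.736). The ranges of KLF13 and KLF5 overlapped, as did those of neighbours from KLF11 through KLF6, so the order among these is not resolved. In shZNF598 cells KLF11, KLF5 and KLF13 (1.23) came next with overlapping ranges, clear of KLF16 (0.907). KLF4 was lowest, at 0.208 CPM per kb in shControl and 0.227 in shZNF598 cells, clear of KLF6 in both.

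**Figure D1:**
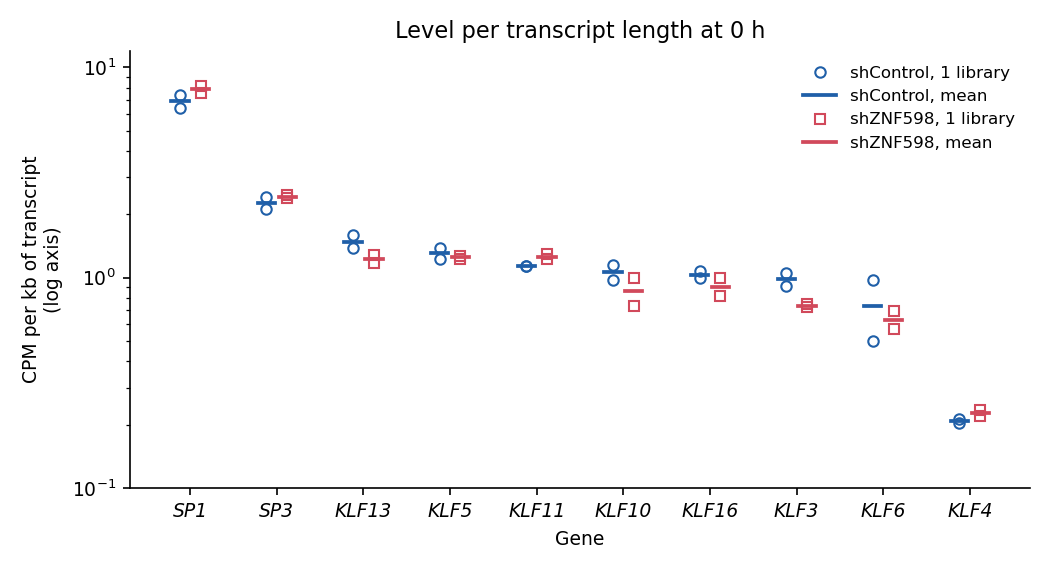
Level of each member at 0 h in CPM per kb of transcript (log axis), with each library as a point and the mean of 2 libraries as a bar for shControl and shZNF598. SP1 lies above SP3 and both lie above all KLF genes, KLF4 lies lowest, and the KLF genes between them overlap in part.

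In the first 2 h of the chase the members differed in how much of their labelled mRNA they lost. KLF5, KLF6, KLF10 and KLF11 lost most of it in both cell types, and SP1 and SP3 stayed close to the bulk. KLF3, KLF13 and KLF16 lay between, lower at 2 h but not called. Of these, KLF3 and KLF13 were at an unadjusted p below 0.05 in both cell types (edgeR). Thus 4 of the 9 tested members were lower at 2 h than at 0 h in shControl (3.61% of all 79513 transcripts were called lower) and the same 4 in shZNF598 (3.83%). With 1 row per gene, as for the members, 1107 of 14999 rows were called lower in shControl and 1138 in shZNF598. The median change of the 9 members was -0.50 on the log2 scale in shControl and -0.37 in shZNF598, against -0.025 and -0.024 over all transcripts tested.

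Among the activators, KLF5 (ENST00000377687.6, chromosome 13, 73059005 to 73077538, plus strand), a regulator of epithelial growth, had 4.64 and 4.13 CPM in shControl at 0 h and 1.73 and 1.76 CPM at 2 h. In shZNF598 it went from 4.12 and 4.25 CPM to 1.42 and 1.82 CPM. Every 2 h library lay below every 0 h library. The log2 change of KLF5 was -1.33 (SE 0.163) in shControl and -1.37 (SE 0.168) in shZNF598 (edgeR quasi-likelihood test, adjusted p = 6.66e-06 and 7.04e-06). KLF6 (ENST00000497571.6, chromosome 10, 3775996 to 3785209, minus strand), a factor induced by injury and growth signals, stood at 4.48 and 2.28 CPM in shControl and 3.17 and 2.62 CPM in shZNF598 at 0 h. At 2 h it stood at 0.692 and 0.869 CPM and at 0.792 and 1.2 CPM. The shControl 0 h libraries of KLF6 differed by more than any other replicate pair of that time among the tested members, yet both exceeded all 4 libraries of 2 h. Its log2 change was -2.10 (SE 0.269) in shControl and -1.53 (SE 0.269) in shZNF598 (edgeR, adjusted p = 1.17e-05 and 0.000634). With the compared groups alone in the fit, KLF6 in shControl missed the threshold (-2.08, edgeR adjusted p = 0.0522). KLF4 (ENST00000374672.5, chromosome 9, 107484852 to 107489769, minus strand), one of the reprogramming factors, had 44 and 44 counts in shControl and 42 and 39 counts in shZNF598 at 0 h. At 2 h it had 21 and 25 counts and 22 and 14 counts, and at 4 h no library held more than 9.

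Among the SIN3A-binding repressors, KLF10 and KLF11 fell and KLF13 and KLF16 did not pass the test. KLF10 (ENST00000395884.3, not the canonical transcript, chromosome 8, 102648786 to 102654375, minus strand) had 3.58 and 4.22 CPM in shControl at 0 h and 0.679 and 0.880 CPM at 2 h. In shZNF598 it had 3.68 and 2.67 CPM and then 0.724 and 0.560 CPM. No other tested member lost as large a share, with a 4.98-fold fall in shControl and a 4.95-fold fall in shZNF598. The log2 change of KLF10 was -2.32 (SE 0.223) and -2.31 (SE 0.237), with edgeR adjusted p of 1.69e-07 and 4.80e-07, and only 0.0314% and 0.0226% of all tested transcripts had a change as low. KLF11 (ENST00000305883.6, chromosome 2, 10043550 to 10054836, plus strand), which shares 87.7% of the finger stretch with KLF10, went from 4.59 and 4.59 CPM to 2.14 and 2.32 CPM in shControl. In shZNF598 it went from 5.22 and 4.91 CPM to 2.12 and 2.56 CPM. The 0 h and 2 h libraries of KLF11 did not overlap, and its log2 change was -1.04 (SE 0.147) and -1.11 (SE 0.148), with edgeR adjusted p of 4.05e-05 and 1.94e-05. KLF13 (ENST00000307145.4, chromosome 15, 31326835 to 31377899, plus strand) kept 81.8% and 79.1% of its 0 h mean at 2 h, and KLF16 (ENST00000250916.6, chromosome 19, 1852399 to 1863579, minus strand) kept 80.6% and 82.2%. Their log2 changes lay between -0.34 and -0.28, with edgeR adjusted p of 0.198 or more. KLF3 (ENST00000261438.10, chromosome 4, 38664199 to 38701517, plus strand), the CtBP-binding member, kept 70.6% and 77.3%, and its changes of -0.50 and -0.37 did not pass either (edgeR adjusted p = 0.0653 and 0.234).

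SP1 and SP3 were nearly level over the same 2 h. SP1 had 57.0 and 49.2 CPM in shControl at 0 h and 46.1 and 50.5 CPM at 2 h, and in shZNF598 62.8 and 58.1 CPM and then 54.6 and 52.4 CPM. The shControl libraries of the 2 times overlapped. SP3 had 29.2 and 25.6 CPM and then 27.2 and 28.0 CPM in shControl, and 29.7 and 28.6 CPM and then 29.9 and 30.7 CPM in shZNF598. The 95% intervals of the change were -0.35 to 0.08 for SP1 and -0.20 to 0.22 for SP3 in shControl, and neither met that of KLF11 (-1.33 to -0.75), the smallest of the 4 falls. The 4 falls kept their calls in both cell types when each of the 20 libraries was left out in turn.

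**Figure D2:**
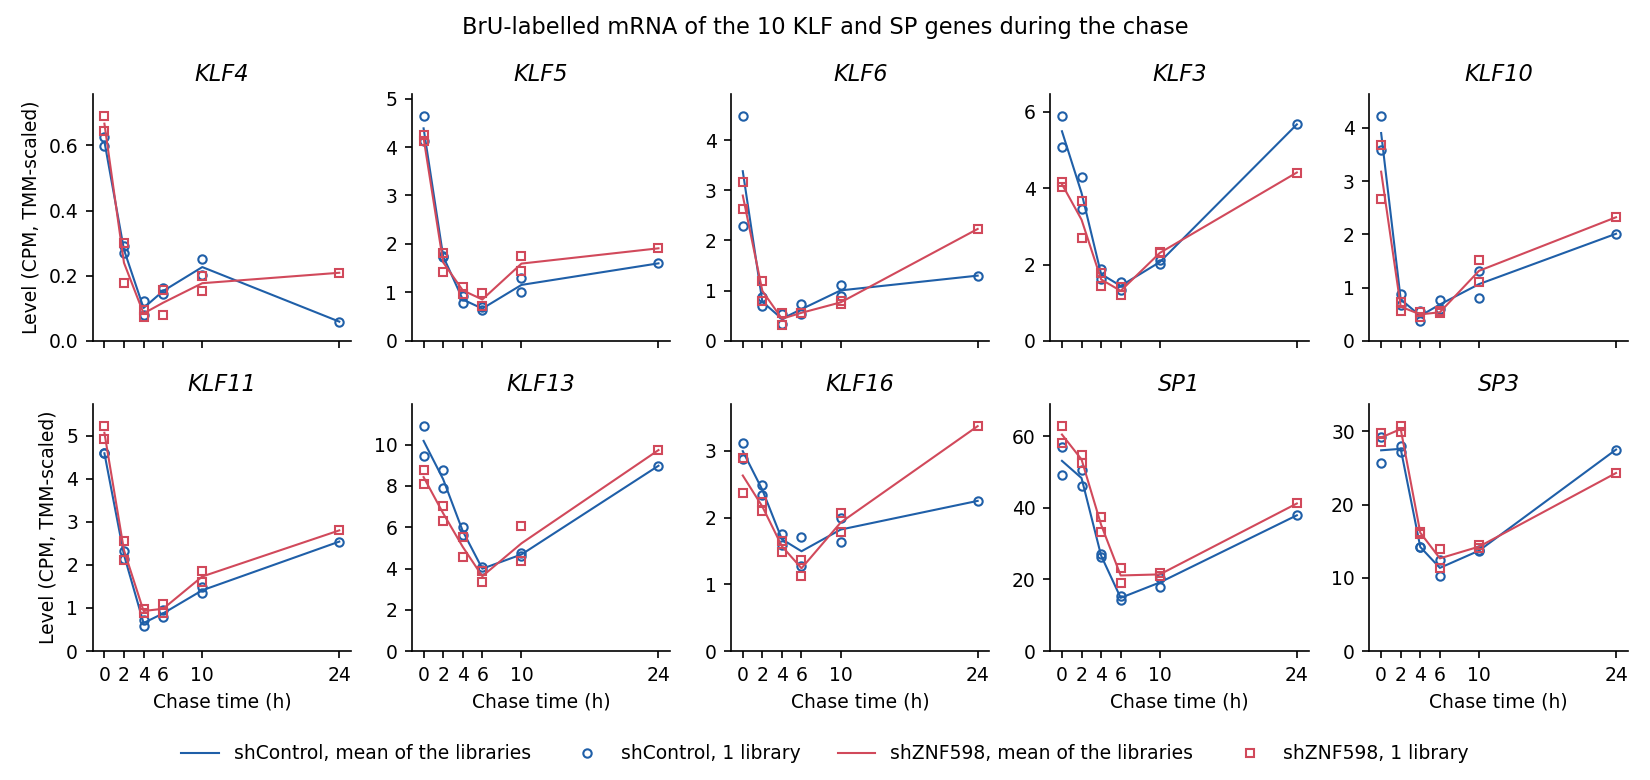
Level of each member in CPM after TMM scaling against chase time in hours, with each library as a point and the means joined by lines for shControl (2 libraries per time, 1 at 24 h) and shZNF598 (the same). KLF10 is at 20.2% of its 0 h mean at 2 h in shZNF598 and SP3 at 104%, and every course is lowest at 4 or 6 h within the first 10 h (KLF4 in shControl is lower still at 24 h).

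From 2 to 6 h the fall reached SP1 and SP3, which had been nearly level, while KLF5 and KLF11 fell further. Over both cell types together, 8 of the 9 tested members fell (37.9% of all transcripts were called lower), and KLF10 was the exception at -0.22 (SE 0.199, edgeR adjusted p = 0.332), though it fell as well by total counts (-0.47, edgeR adjusted p = 0.0380). SP1 fell by 1.52 on the log2 scale (SE 0.080, edgeR adjusted p = 7.44e-14), the largest fall of the 9. Its shControl libraries stood at 27.1 and 26.2 CPM at 4 h and at 15.4 and 14.3 CPM at 6 h, all below the lowest 2 h library. SP3 fell by 1.27 (SE 0.080, adjusted p = 1.2e-12), from 27.2 and 28.0 CPM at 2 h to 14.2 and 14.2 CPM at 4 h and 12.4 and 10.3 CPM at 6 h in shControl. KLF3 fell by 1.36 (SE 0.125), KLF11 by 1.30 (SE 0.123), KLF5 by 1.17 (SE 0.142), KLF13 by 0.97 (SE 0.102) and KLF16 by 0.73 (SE 0.123), each with an edgeR adjusted p of 1.04e-05 or less. KLF6 fell by 0.56 (SE 0.231, edgeR adjusted p = 0.0334). That call was lost without shControl 2 h replicate 2 (-0.47, edgeR adjusted p = 0.117), shZNF598 2 h replicate 2 (-0.39, 0.176), shControl 6 h replicate 2 (-0.46, 0.106), or either shZNF598 library of 6 h (-0.56 and -0.55, 0.0615 and 0.0758).

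Within 0 to 10 h all 20 courses, 10 genes in 2 cell types, had their lowest mean at 4 h (8 courses) or 6 h (12 courses), and none at 10 h. The hour of the lowest mean was not counted over all transcripts, so it is not read as particular to these genes. From 6 to 10 h, 8 of the 9 tested members rose relative to the bulk under TMM scaling (32.1% of all transcripts were called higher). The rise was 0.95 (SE 0.196) for KLF10, 0.86 (SE 0.154) for KLF5 and 0.75 (SE 0.135) for KLF11, with edgeR adjusted p of 0.000201 or less, and 0.55 (SE 0.248, adjusted p = 0.0603) for KLF6. This step depended on the scaling. Scaling by total counts moved the median of all transcripts from 0.023 to -0.36 for 10 h against 6 h, and from -0.002 to -0.26 for 6 h against 2 h, and the share of calls that were higher from 53.7% to 19.1% and from 49.2% to 30.2%. With it, KLF5 (0.47), KLF10 (0.57) and KLF11 (0.36) still rose, while SP1 turned to -0.19 (edgeR adjusted p = 0.0456), SP3 to -0.17 (0.0822) and KLF13 to -0.02 (0.888). KLF3 (0.29, edgeR adjusted p = 0.0703) and KLF16 (0.05, 0.735) were not called either. Under TMM scaling the smaller rises also rested on single libraries. KLF13 (0.37, edgeR adjusted p = 0.00491) was lost without shZNF598 10 h replicate 2 (0.25, 0.0535). SP3 (0.22, adjusted p = 0.0228) was lost without replicate 2 of either cell type at 6 h (0.16 and 0.15), shControl 10 h replicate 2 (0.21) or shZNF598 10 h replicate 1 (0.20). SP1 (0.19, adjusted p = 0.0429) was lost without any 1 of 12 libraries. Without shZNF598 6 h replicate 2 it stood at 0.13, without shControl 10 h replicate 1 at 0.14, without shControl 6 h replicate 1 or 2 at 0.22 and 0.17, and without shZNF598 10 h replicate 1 or 2 at 0.21 and 0.18. The others were both shZNF598 libraries of 0 h and both shControl libraries of 2 h and of 4 h, each of which left it at 0.19 (edgeR adjusted p 0.0511 to 0.0519).

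**Figure D3:**
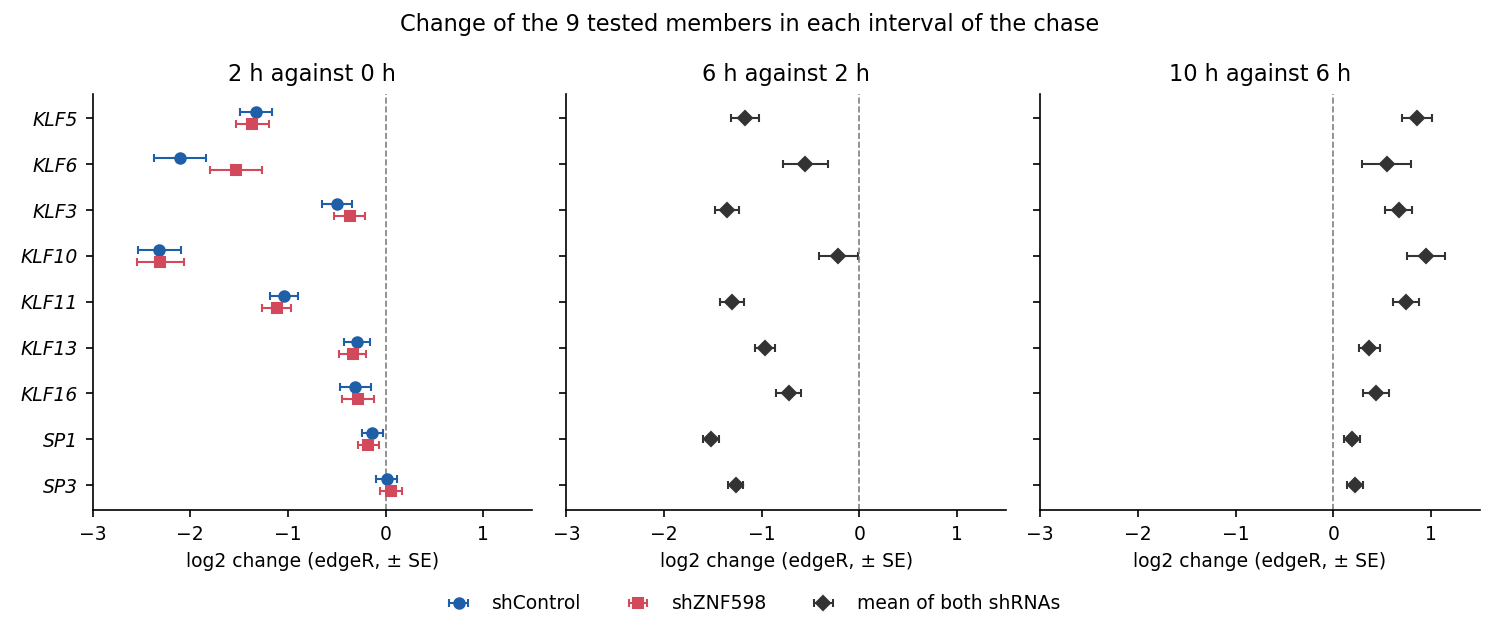
log2 change of the 9 tested members from 0 to 2 h in shControl and shZNF598, and from 2 to 6 h and 6 to 10 h as the mean of both shRNAs, each with its SE from edgeR. KLF10 and KLF6 fell most in the first interval, SP1 in the next, and the TMM-scaled values of the last interval lie above 0.

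A straight line over 0 to 10 h described these courses only in part. Relative to the bulk, all 9 tested members declined in shControl (40.8% of all transcripts did), with slopes of -0.202 (KLF5) to -0.078 (KLF16) log2 units per hour. By DESeq2 6 of 9 did, without KLF6 (adjusted p = 0.145), KLF10 (0.165) and KLF11 (0.0605). In shZNF598, 7 of 9 declined (38.5%), and KLF10 (-0.119, SE 0.079, edgeR adjusted p = 0.179) and KLF16 (-0.056, SE 0.028, 0.0789) did not pass. By DESeq2 3 did, KLF13, SP1 and SP3. The slope of SP1 was -0.172 (SE 0.029) in shControl and -0.168 (SE 0.030) in shZNF598, and that of SP3 -0.121 (SE 0.029) and -0.126 (SE 0.029). By total counts the share of slope calls that were higher moved from 45.1% to 22% in shControl and from 46.0% to 22% in shZNF598, and all 9 members declined in both. With the 24 h libraries in the line, none of the 9 slopes passed in either cell type (edgeR, 0 at an unadjusted p below 0.05, lowest adjusted p 0.227 in shControl and 0.387 in shZNF598). The calls of SP1 and SP3 in both cell types, and of KLF3, KLF5 and KLF13 in shControl, held without any 1 library. Without shControl 0 h replicate 1 the shControl slopes of KLF6 (-0.065), KLF10 (-0.135), KLF11 (-0.148) and KLF16 (-0.064) were lost, and without shControl 0 h replicate 2 those of KLF6 (-0.153), KLF10 (-0.112) and KLF11 (-0.148). KLF6 was also lost without either shControl library of 6 h (-0.162 and -0.158). KLF10 was also lost without either shControl library of 6 h (-0.172 and -0.169), shControl 4 h replicate 2 or shZNF598 2 h replicate 1 (-0.176 each), or shControl 10 h replicate 2 (-0.198), and moved to -0.278 without shControl 10 h replicate 1. In shZNF598, leaving out 0 h replicate 1 or 2 ended the calls of KLF3 (-0.084 and -0.081), KLF5 (-0.105 and -0.102), KLF6 (-0.145 and -0.169) and KLF11 (-0.126 and -0.132), and replicate 2 that of KLF13 (-0.065), which moved to -0.122 without shZNF598 10 h replicate 2. KLF3 in shZNF598 was also lost without either shZNF598 library of 2 h (-0.100 and -0.091) or 6 h (-0.092 and -0.089), or without shControl 2 h replicate 1 (-0.099).

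The apparent half-life, the time in which a level drops by 50% relative to the bulk in the best-fitting window of the chase, is given in both cell types as a description. It was kept in both cell types for 8 of the 10 members, and for 20394 of the 156360 transcripts fitted. Those were fitted without the filter of 1 CPM, so the shares are not of like sets. Its windows hold the 0 and 2 h libraries, so a short value restates the fall from 0 to 2 h and is no separate support. In shControl it was 1.61 h for KLF4, 1.79 h for KLF5, 1.42 h for KLF6, 1.36 h for KLF10 and 1.48 h for KLF11, each from the window of 0 to 4 h. The value of KLF4 rests on 6 and 9 counts at 4 h. The half-life was 2.61 h for KLF3, 3.44 h for SP1, 4.96 h for KLF13 and 5.58 h for KLF16, and KLF13 moved to 7.70 h without replicate 2. In shZNF598 it was longer for KLF3 (3.65 h), KLF13 (6.71 h), SP1 (4.29 h), KLF5 (2.15 h), KLF11 (1.74 h), KLF16 (6.28 h) and KLF6 (1.56 h), and shorter for KLF4 (1.40 h). The ratio of shZNF598 to shControl ran from 0.87 (KLF4) to 1.40 (KLF3). The windows of KLF3 and KLF16 ended at 4 h in shControl and 6 h in shZNF598, and that of KLF13 at 6 h and 4 h. With 0 to 4 h in both cell types the ratio was 1.26 for KLF3, 1.16 for KLF13 and 1.19 for KLF16. Over the 20394 transcripts with a kept fit in both cell types, the medians were 4.14 h (shControl) and 4.23 h (shZNF598). SP3 had no kept fit in either cell type (R2 0.845 and 0.835) and KLF10 none in shZNF598 (R2 0.838). These values have no test, and with the whole span of 0 to 10 h as a fixed window no member had a kept fit.

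SP1 was higher in shZNF598 cells over the chase, and the early falls and slopes of the members were not called different between the cell types. At 0 h none of the 9 tested members differed (edgeR, 0.407% of all transcripts called), with 1 at an unadjusted p below 0.05 and 0 by DESeq2. That member was KLF3, with 5.89 and 5.09 CPM in shControl and 4.04 and 4.17 CPM in shZNF598, a log2 difference of -0.42 (SE 0.155, edgeR adjusted p = 0.341). By total counts the share of 0 h calls that were higher moved from 17.9% to 6.51%. Averaged over 0 to 10 h, 2 of 9 members were higher in shZNF598 (22.4% of all transcripts were called in either direction), a share close to that of all transcripts. An unadjusted p below 0.05 (edgeR) was reached by 6 of the 9 members, in both directions, and by 27834 of the 79513 transcripts.

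SP1 was higher in shZNF598 by 0.28 on the log2 scale (SE 0.050), or 1.21-fold (edgeR quasi-likelihood test, adjusted p = 0.000254). At 4 h the shControl libraries had 27.1 and 26.2 CPM and the shZNF598 libraries 37.3 and 33.2 CPM. At 6 h they had 15.4 and 14.3 CPM against 23.1 and 19.1 CPM, and at 10 h 20.5 and 17.8 CPM against 21.0 and 21.8 CPM. Both shZNF598 libraries lay above both shControl libraries at all 5 chase times, which 2.05% of all tested transcripts did. The difference ranged from 0.25 to 0.31 when each library was left out, with an edgeR adjusted p of at most 0.00136. SP3, its closest relative, differed by 0.13 (SE 0.050, edgeR adjusted p = 0.0710) and was higher in both shZNF598 libraries at 3 of the 5 times. The share of all transcripts separated at only 3 or 4 times was not taken, so such counts are a description.

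KLF11 was higher by 0.23 (SE 0.079), or 1.17-fold (edgeR adjusted p = 0.0377), with both shZNF598 libraries above at 3 of 5 times. At 4 h it had 0.591 and 0.709 CPM in shControl and 0.975 and 0.883 CPM in shZNF598. The call was lost by total counts (0.21, adjusted p = 0.0604), without a filter (0.24, 0.0694), by DESeq2 (0.23, 0.0687) and without any 1 of 10 libraries (0.20 to 0.24, edgeR adjusted p 0.0501 to 0.0938). Those were both shZNF598 libraries of 0 h, shControl 2 h replicate 1, shZNF598 2 h replicate 2, replicate 1 of both cell types at 4 h, shControl 6 h replicate 2, shZNF598 6 h replicate 1 and replicate 2 of both cell types at 10 h. KLF13 pointed the other way, at 7.89 and 8.76 CPM in shControl and 7.04 and 6.31 CPM in shZNF598 at 2 h. Both shZNF598 libraries of KLF13 were below at 4 of 5 times, a count with no share over all transcripts beside it, as for KLF11. The difference of KLF13, -0.16 (SE 0.064), was not called (edgeR adjusted p = 0.0803) but was by total counts (-0.18, edgeR adjusted p = 0.0470). The differences of KLF3 (-0.17), KLF5 (0.18), KLF6 (-0.09), KLF10 (-0.13) and KLF16 (-0.13) were not called either. The 95% intervals of KLF3 (-0.32 to -0.01) and KLF5 (0.01 to 0.35) left out 0. Those of KLF6, KLF10 and KLF16 held 0 and lay between -0.38 and 0.20. Without shControl 0 h replicate 1, 4 members were called in place of 2, with SP3 (0.15, edgeR adjusted p = 0.0281) and KLF13 (-0.18, 0.0380) beside SP1 and KLF11. SP3 was also called without shControl 6 h replicate 1 (0.0365) or shZNF598 6 h replicate 2 (0.0239), and KLF13 without shZNF598 4 h replicate 1 (0.0497) or shZNF598 10 h replicate 2 (-0.20, 0.0188), all edgeR adjusted p.

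**Figure D4:**
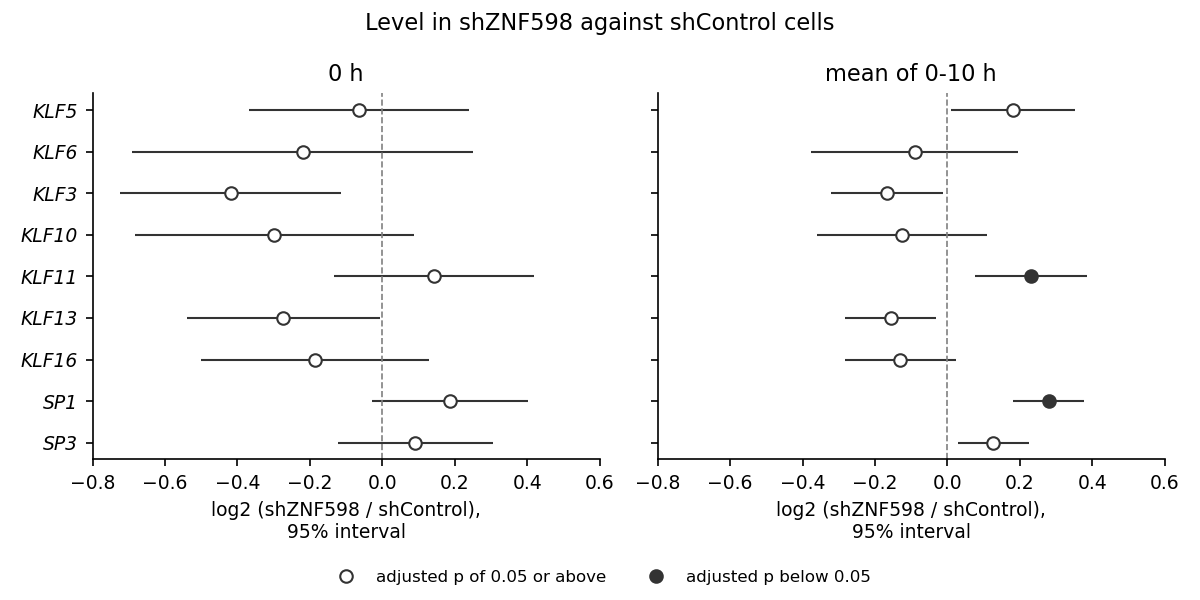
log2 level in shZNF598 over shControl for the 9 tested members at 0 h and as the mean of 0 to 10 h, with 95% intervals. Filled points passed an adjusted p of 0.05, which only SP1 (0.28) and KLF11 (0.23) did for the mean of 0 to 10 h.

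The decay of the members itself was not called different between shControl and shZNF598. For the slope, none of 9 members passed (edgeR, 0.116% of all transcripts called), 0 at an unadjusted p below 0.05 and 0 by DESeq2, which gave 6 of them no adjusted p. For the change from 0 to 2 h none of 9 passed either, and none of all 79513 transcripts (edgeR, 0.0% called, 1436 at an unadjusted p below 0.05 but no member among them, and 0 by DESeq2). The 95% interval of the slope difference was -0.075 to 0.082 log2 units per hour for SP1, -0.083 to 0.074 for SP3 and -0.160 to 0.276 for KLF10. For the change from 0 to 2 h it was -0.69 to 0.71 for KLF10, -0.18 to 1.33 for KLF6 and -0.34 to 0.26 for SP1.

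The 3′ UTRs were searched on the transcript strand for the AU-rich pentamer ATTTA and the Pumilio motif TGTANATA, letters found in many short-lived mRNAs. All 10 members held ATTTA, from 0.893 per kb in KLF13 to 3.027 per kb in KLF5, against a median of 1.802 per kb over 10535 genes tested. The pentamer was in 75.9% of the 3′ UTRs of those genes. Among 3′ UTRs of like length it was in 76.0% (for KLF4) to 99.6% (for SP3). KLF4, KLF5, KLF6, KLF10 and KLF11, whose apparent half-lives were under 2 h in shControl, held 1.693 to 3.027 per kb, and the 5 members not called at 2 h held 0.893 (KLF13), 0.971 (KLF16), 1.729 (SP1), 2.116 (KLF3) and 2.618 (SP3). The lowest densities, those of KLF13 and KLF16, were thus of members not called at 2 h, and the ranges of both kinds overlapped. Among 3′ UTRs of like length, 29% were at least as dense as that of KLF5, 39.4% for KLF4, 40.4% for KLF11, 42.6% for KLF10 and 63.5% for KLF6. For the 5 members not called at 2 h these shares were 39.4% (SP3), 53.3% (KLF3), 66.9% (SP1), 75.6% (KLF16) and 87.7% (KLF13). Windows of 30 bases with 2 pentamers, in capitals, are shown for a pair of members that fell by 2 h and for both SP genes, which were not called at 2 h, to show what the counted letters look like in the transcript. The bases are from GRCh38, read on the strand of the gene.
KLF6: gtgtATTTAcaaatataacacaacaATTTA
KLF11: atgttaattaccagcATTTAcctttATTTA
SP1: gttttcaggttgcccATTTAtattcATTTA
SP3: cttaaaATTTAtatgtatccagtacATTTA
They lie at chr10:3778793-3778822 (minus strand), chr2:10053931-10053960 (plus), chr12:53414292-53414321 (plus) and chr2:173908825-173908854 (minus). TGTANATA was found in KLF3, KLF5, KLF6, KLF13, KLF16 and SP3, with 3 copies each in KLF5 and SP3, and not in KLF4, KLF10, KLF11 or SP1. It was held by 32.1% of the 10535 3′ UTRs. Among 3′ UTRs of like length the share was 20.9% for KLF4, 27.8% for KLF10, 32.7% for KLF5, 36.9% for KLF16 and 41.1% for KLF11. For the longer ones it was 51.2% (KLF6), 56.0% (KLF3), 62.1% (SP1), 63.2% (KLF13) and 77.7% (SP3).

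Parts of 4 members overlap a long noncoding RNA on the opposite strand, which holds 4.70% of the exon bases of KLF3, 9.43% of KLF4, 10.3% of KLF11 and 16.6% of KLF16. Since it is not given whether the counting used the strand, their counts may include reads of that partner. Exons of KLF5, KLF6, KLF10, KLF13, SP1 and SP3 overlap no other gene in GENCODE release 44.

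Across the 20 libraries of 0 to 10 h, each member's log2(CPM + 0.5) was compared with that of 10725 protein-coding genes. The genes most like the early fallers were ZNF184 for KLF5 (Pearson r = 0.980), BCL2L11 for KLF6 (0.970), SMAD7 for KLF10 (0.979) and CCNE1 for KLF11 (0.988). Those most like the other members were FOXJ3 for SP1 (0.992), USP38 for SP3 (0.990), C6orf120 for KLF3 (0.989), TBC1D10B for KLF13 (0.978) and KCTD1 for KLF16 (0.965). Within the family, SP1 and SP3 were each other's nearest member (0.960), as were KLF5 and KLF11 (0.966) and KLF3 and KLF16 (0.925). Many other genes were closer. Among the 10725 genes, SP3 ranked 311 for SP1 and SP1 271 for SP3. KLF11 ranked 32 for KLF5 and KLF5 118 for KLF11, and KLF16 ranked 511 for KLF3 and KLF3 119 for KLF16. All points share the same 20 libraries and their scaling, and these values are a description.

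Of the 17 other KLF and SP genes on the list, 3 passed the filter. KLF9, a SIN3A-binding relative of KLF13, fell from 0 to 2 h, by -0.79 (SE 0.179) in shControl and -0.82 (SE 0.187) in shZNF598 (edgeR adjusted p = 0.00907 and 0.00881). SP4, a relative of SP1, fell by 0.55 in shZNF598 (SE 0.156, adjusted p = 0.0384) and had -0.51 in shControl (0.0658). KLF12, a CtBP-binding relative of KLF3, had -0.04 and -0.09 (0.928 and 0.820), and from 2 to 6 h KLF12 (-1.28), SP4 (-1.89) and KLF9 (-1.99) all fell, each with an edgeR adjusted p of 1.64e-10 or less. KLF12 was also lower in shZNF598 over 0 to 10 h (-0.25, SE 0.067, edgeR adjusted p = 0.00950). None of the 5 EGR and WT1 genes, whose fingers recognise similar GC-rich sites, passed the filter.

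The corepressors and coactivators that KLF and SP proteins bind were tested with the members. None of 11 cofactors passed from 0 to 2 h in either cell type (edgeR, 2 in shControl and 2 in shZNF598 at an unadjusted p below 0.05, DESeq2 not run for this list), with medians of -0.14 and -0.01. From 2 to 6 h 7 fell and 3 rose, in a step where 30096 of the 79513 transcripts were called lower and 29180 higher, among the cofactors SIN3A (-0.93, SE 0.110) and HDAC1 (0.54, SE 0.063), each with an edgeR adjusted p of 5.14e-08 or less. CTBP1 and CTBP2, the partners of KLF3, were lower in shZNF598 over 0 to 10 h (-0.67, SE 0.053, edgeR adjusted p = 1.37e-09, and -0.19, SE 0.046, 0.00447). Of 5 tested genes whose products ubiquitinate, deSUMOylate or glycosylate KLF or SP proteins, the ubiquitin ligase SIAH1 fell from 0 to 2 h in both cell types (-0.71, SE 0.160, and -1.01, SE 0.160), with edgeR adjusted p of 0.00790 and 0.000185. FBXW7, a ubiquitin ligase subunit, fell by 0.47 in shControl (SE 0.136, adjusted p = 0.0496) and had -0.18 in shZNF598 (0.558).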

How the data were processed

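BRIC-Seq libraries of HEK293T cells were analysed from raw counts. Per the methods and labels of the study, reads were trimmed, cleared of noncoding RNA and aligned to hg38 (GRCh38) with STAR 2.7.0a and the GENCODE release 32 annotation, with at most 1 mismatch and 1 locus per read. The authors then counted reads per transcript, and the deposited values are whole read counts, 1 file per library, beside each transcript's length in codons. The methods of the study name no rule for reads shared by isoforms in these libraries, so a read may count in more than 1 isoform. The strand setting of the counting is not given in the sources used here. The 3 BrU-labelled spike-ins were not used, so no absolute half-life is given.

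GENCODE release 44, on the same build, gave a name to 98.4% of the 227264 identifiers, and the rest held 2.22% of the counts. A transcript was kept where its mean reached 1 CPM (counts scaled to a common library total) over the 20 libraries of 0 to 10 h. Libraries were scaled by TMM and tested with the edgeR 4.0.16 quasi-likelihood test (R 4.3.3, limma 3.58.1) with Benjamini-Hochberg adjustment over all 79513 transcripts and a threshold of 0.05. Levels came from 1 mean per group, and slopes from shRNA, chase hours and their product, all in 1 fit over the 20 libraries, so that groups of 2 shared 1 estimate of the spread. The standard error was the log2 difference divided by the square root of F. Each 95% interval was taken from it with a normal quantile. Half-lives followed the rule of the study with DESeq2 1.42.0, in the window of chase hours with the highest R2, kept where R2 was above 0.9. The functions were tested on simulated counts with flat courses, planted changes and 1 spread for all transcripts. These data differ in both respects, so that run checks the code and not the calls reported here.

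Groups and replicate numbers came from the labels. Replicate numbers were not treated as pairs. The deviations of same-numbered libraries correlated at a median r of 0.029 over 45 pairs of groups (-0.327 to 0.475), above 0.1 in 12. This shows no pairing common to all groups, and whether some groups shared a batch was not tested. The 10 members and the lists of related genes were chosen with earlier results of these data known. All 10 members, ZNF598, list genes past the threshold and the gene most like each member were named by rule. The comparisons of 6 h with 2 h and of 10 h with 6 h were added after the data had been seen. Alternatives covered scaling, filters, test, replicate block, chase window, transcript choice and left-out libraries. Intervals cover the spread between these libraries only.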

Additional observations from a re-analysis of the deposited data

How the results depend on the processing

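Most values kept their direction and side of the threshold, and the exceptions follow. With a mean of at least 5 CPM only 3 members were tested, and the counts became 1 for the averaged level, 3 for the slope in each cell type, 0 for the change from 0 to 2 h in each, 3 from 2 to 6 h and 1 from 6 to 10 h. The averaged level gave 1 member without a filter and 1 by DESeq2, and by DESeq2 the slope gave 6 in shControl and 3 in shZNF598, and the change from 6 to 10 h gave 9. With the window 0 to 24 h both slope counts were 0, and the shZNF598 slopes of KLF3 and KLF13 turned to 0.006 and 0.009. By total counts 4 members changed from 6 to 10 h, and KLF13 (-0.018), SP1 (-0.193) and SP3 (-0.168) turned negative. Leaving out libraries gave 1 to 4 members for the averaged level, 3 to 9 for the slope in shControl and 2 to 8 in shZNF598, 7 to 8 from 2 to 6 h, 6 to 9 from 6 to 10 h and 6 to 7 kept half-lives, and with the fixed window of 0 to 10 h none (0) were kept. The cause of these shifts was not tested. The shControl count of 3 came with a whole replicate number left out, which leaves 1 library a time, and the shZNF598 count of 2 also without shZNF598 0 h replicate 2 alone. With the replicate block the counts were 2 for the averaged level, 8 and 6 for the slopes (KLF10 in shControl, edgeR adjusted p = 0.0537, and KLF3 in shZNF598, 0.0511, were lost), and 4 and 4 for the change from 0 to 2 h. The replicate numbers showed no pairing common to all groups, and why these 2 calls were lost was not tested. Members near 1 CPM, and KLF4 with fewer than 50 counts in every library, limit what could be detected.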

Other observations

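At 24 h each cell type had 1 library, so these values have no spread and no test. In 19 of the 20 courses the 24 h library lay above the 10 h mean, KLF4 in shControl being the exception with 1 count. That count was made under TMM scaling only and not over all transcripts, so it is not read as particular to these genes. The level at 24 h was 9.66% to 128.0% of the 0 h mean over the 20 courses. SP1 stood at 37.9 CPM in shControl and 41.2 CPM in shZNF598, and SP3 at 27.5 and 24.3 CPM. KLF10 stood at 2.01 and 2.32 CPM, KLF5 at 1.60 and 1.91 CPM and KLF6 at 1.30 and 2.23 CPM. Total counts were lower at 24 h, at 21220829 in shControl and 40157613 in shZNF598, and ZNF598 itself stood at 5.08 and 2.50 CPM. Among list genes under the filter, KLF7, KLF15, SP2 and SP9 ranged from 0.224 to 2.46 CPM over the 22 libraries and were not tested.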
